A study of Mus musculus with 4 samples.

Results

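The collagen genes of the mouse kidney were described by cell type and by treatment with losartan, a drug that blocks the angiotensin II type 1 receptor. Members were all gene symbols made of Col, a number, the letter a and a number. They came to 44 of the 27998 genes listed in each of the 4 count matrices. Single-nucleus RNA sequencing (10x Genomics Chromium) was done on flash-frozen kidneys of C57BL/6 mice at post natal week 22. There were 2 groups of 2 libraries, untreated and losartan. The labels name no other agent, allele or disease for either group and give no dose, route or duration. No label says that the replicates came from separate animals, so p-values measure the spread between these libraries, part of which may be technical.

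Collagens are secreted or membrane-bound proteins of 3 chains wound into a triple helix, and each gene encodes a chain. Fibrillar collagens such as I, III and V form the fibres of the interstitium, whose deposition by fibroblasts is the hallmark of kidney fibrosis. Collagen IV forms the network of basement membranes. Its α1 and α2 chains are found in most basement membranes, whereas the α3, α4 and α5 chains build the mature glomerular basement membrane and are mutated in Alport syndrome. Collagen VI forms beaded filaments, the FACIT collagens bind to the surface of fibrils, and the multiplexins XV and XVIII carry sugar chains and lie next to basement membranes. Losartan lowers angiotensin II signalling, which is known to promote matrix production by fibroblasts and mesangial cells.

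The collagen IV genes lie in pairs whose members are read in opposite directions from starts close to each other. Bases between those starts are shown because the paired genes had similar levels across cell types, as described below. The sequences are from RefSeq (GRCm38), 35 of the 44 members had a RefSeq promoter entry, and each is written 5′ to 3′ on the strand given. Only the stretch outside the gene bodies was kept. Capitals mark matches to the motifs searched on both strands, which were the TATA box (TATAAA), the CCAAT box (CCAAT) and the GC box (GGGCGG).
Col4a3 and Col4a4, all 71 bases between the starts, chr1:82586850-82586920, minus strand: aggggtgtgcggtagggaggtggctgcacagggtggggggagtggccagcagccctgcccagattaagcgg
Col4a5, 216 bases before the start, chrX:141475169-141475384, plus strand: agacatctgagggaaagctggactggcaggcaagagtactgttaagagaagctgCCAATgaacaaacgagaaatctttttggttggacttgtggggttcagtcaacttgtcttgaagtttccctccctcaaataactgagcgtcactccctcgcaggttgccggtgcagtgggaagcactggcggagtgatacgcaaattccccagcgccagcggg
Col4a6, 250 bases before the start, chrX:141474077-141474326, minus strand: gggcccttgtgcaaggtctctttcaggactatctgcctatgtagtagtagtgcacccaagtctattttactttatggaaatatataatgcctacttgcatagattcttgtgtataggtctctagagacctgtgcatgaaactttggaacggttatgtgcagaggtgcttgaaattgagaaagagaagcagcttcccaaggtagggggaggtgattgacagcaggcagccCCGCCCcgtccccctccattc
None of the 3 motifs was found in the 71 bases shared by Col4a3 and Col4a4. Of 32851 promoter sequences cut to that length, 4.41% held the TATA box, 13.3% the CCAAT box and 20.7% the GC box. The Col4a5 stretch held 1 CCAAT box, as did 30.8% of promoters cut to 216 bases. The Col4a6 stretch held 1 GC box on the opposite strand, as did 32.7% of promoters cut to 250 bases. The starts of Col4a5 and Col4a6 were 1308 bases apart, and the gene bodies of Col4a1 and Col4a2 overlapped by 22 bases at their starts on chromosome 8.

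The libraries held 9326 to 10342 barcodes and 42290414 to 59078762 unique molecular identifiers (UMIs, counts of captured RNA molecules). After filtering, 36003 of 39654 nuclei were kept, with median depths of 3363, 4096, 4230.5 and 3952 UMIs per nucleus in untreated libraries 1 and 2 and losartan libraries 1 and 2, the order used for all values below. Pairs of libraries shared 21 to 29 barcodes, at most 0.286% of the smaller library. Clusters were named from markers that include no collagen, and the collagens were held out of the clustering. A class name stands for nuclei that resemble that cell type. The mix of classes differed between the groups. Proximal tubule made up 32.8% and 22.7% of untreated nuclei and 50.1% and 39.7% of losartan nuclei. Endothelium made up 8.02% and 9.88% against 3.34% and 5.85%, and fibroblasts 8.72% and 10.7% against 5.23% and 9.65%.

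Levels by class are CPM (UMIs of a gene per 1e6 UMIs of the sum) after TMM scaling over all classes and libraries, and are given as mean ± SD over the 4 libraries. For each collagen the class with the highest mean was tested against the class with the next highest, by the quasi-likelihood test of edgeR with the library as a block. The pair was picked from the same values, so the test describes how far the top class stands apart. Of 31 collagens with enough counts for the fit, 18 passed at adjusted p under 0.05. Depending on the pair of classes, 8.60% to 27.4% of all genes were called higher in the top class.

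The interstitial fibrillar chains were highest in fibroblasts. Col1a1, the α1 chain of collagen I, was at 124 ± 79.1 CPM (SD, n = 4) there and at 18.6 CPM in the next class, macrophages and dendritic cells. Its log2 difference was 2.91 ± 0.28 (SE), with an edgeR adjusted p of 5.86e-13 where 21.3% of all genes were called. Fibroblasts held 71.2% of all Col1a1 UMIs. Col3a1, the chain of collagen III, was at 226 ± 95.0 CPM in fibroblasts and 55.2 ± 54.7 in mural and mesangial nuclei (16.2% of all genes called). Col5a1, a chain of the collagen V that nucleates fibrils, was at 162 CPM in fibroblasts and 28.4 in macrophages.

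Col1a2, the second chain of collagen I, had a wider spread over classes than Col1a1. It was at 410 ± 115 CPM in fibroblasts and 145 ± 52.1 in podocytes, where Col1a1 was at 3.68. In macrophages it was at 84.5, in mural nuclei at 71.7, and in the remaining 11 classes at 8.35 to 30.8. The fibroblast level of Col1a2 exceeded that of podocytes in 4 of 4 libraries, by 1.5 ± 0.20 on the log2 scale (20% of all genes called). Levels in macrophages and tubule nuclei are set beside these because RNA from other cells can enter a droplet.

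Collagen VI followed the fibroblasts. Col6a1, Col6a2 and Col6a3, the chains of the classical VI heterotrimer, were at 106, 75.9 and 292 CPM in fibroblasts and at 19.4, 15 and 66.8 in the next class. Across the 15 classes their log2 levels correlated at r = 0.939 (Col6a1 and Col6a2) and 0.972 (Col6a1 and Col6a3). These correlations are descriptions. The 15 points share 4 libraries, depth and total RNA content. Col14a1, a FACIT collagen of fibril surfaces, was at 542 ± 101 CPM in fibroblasts against 160 in macrophages. Its top class was called, but not with at most 5% mitochondrial UMIs. Col15a1, the multiplexin of collagen XV, was at 234 ± 95.8 against 63.2 in endothelium (19.0% of all genes called).

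**Figure D1:**
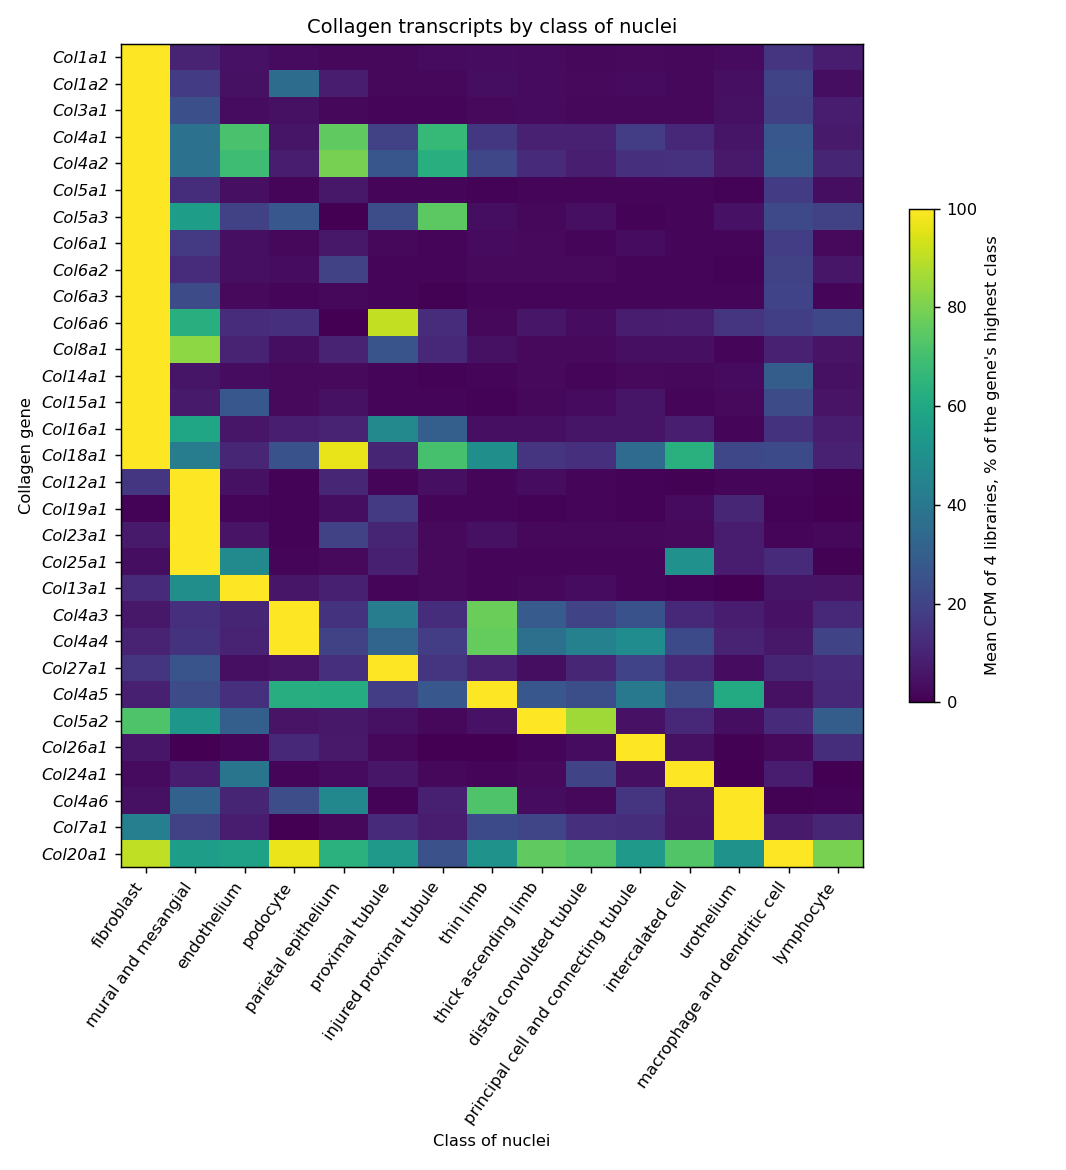
Level of the 31 collagens with at least 200 UMIs (rows) in the 15 classes (columns), as percent of the gene's own highest class, from mean CPM over 4 libraries. Col1a1, Col3a1, Col5a1 and the main Col6 chains peak in the fibroblast column, and Col4a3 to Col4a6 in podocyte, thin limb and urothelium columns.

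Mural and mesangial nuclei, the contractile cells of vessel walls and glomeruli, were the top class for another set. Col12a1, a FACIT collagen, was at 326 ± 153 CPM in them and 51.8 in fibroblasts, a log2 difference of 2.76 ± 0.30. Col19a1, a FACIT collagen linked to basement membrane zones, was at 192 ± 25.4 against 32.2 in proximal tubule. Col23a1, a transmembrane collagen, was at 247 ± 153 against 48.4 in parietal epithelium. These 3 exceeded the next class in 4 of 4 libraries and were called, but Col23a1 had no call with collagens kept in the clustering. For scale, 14.0% of genes were called in mural nuclei over fibroblasts, 21.3% over proximal tubule and 9.33% over parietal epithelium. Pooled over libraries, proximal tubule, which is far more numerous, held 73.4% of the Col19a1 UMIs. By library it held 52.2%, 35.5%, 80.9% and 72.7%, and in untreated library 2 mural nuclei held 45.8%.

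Some collagens stood out in classes that are not thought of as matrix producers. Col27a1, a fibrillar collagen of cartilage, was at 650 ± 108 CPM in proximal tubule and 169 in mural nuclei (25.4% of all genes called), and proximal tubule held 78.4% of its UMIs. Its level differed between proximal tubule clusters, to which no segment was assigned. Pooled over libraries it was at 817 and 891 CPM in proximal tubule clusters 10 and 9, at 559 and 589 in clusters 3 and 11, and at 43.5 in cluster 4. Col26a1 was at 201 ± 73.6 CPM in principal cells and connecting tubule and 26.6 in lymphocytes (17.0% of all genes called). Within that class 1 cluster held it, at 258 CPM in cluster 20 against 4.18 in cluster 29.

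Col24a1, another fibrillar member, was at 32.8 ± 10.5 CPM in intercalated cells, the acid-base cells of the collecting duct, against 12.8 in endothelium (edgeR adjusted p = 0.0029, 22.8% of all genes called). It had no call without untreated library 2. It too was uneven within its class, with 57.3 CPM in cluster 19 and 17.4 in cluster 13. The transmembrane collagen Col25a1 had the same order in those clusters, 55.1 and 5.54. Col13a1, a transmembrane collagen of cell adhesions, was at 58.1 ± 12.7 CPM in endothelium and 28.8 in mural nuclei (edgeR adjusted p = 0.0182, 17.5% of all genes called). Col13a1 had no call without untreated library 1 or without losartan library 2. Within endothelium it was at 60.3 CPM in cluster 0 and 4.64 in cluster 26, whereas Col12a1 was at 5.09 and 104. Col17a1, the collagen of epithelial hemidesmosomes, had only 75 UMIs in all but was called in urothelium (12.0 CPM against 3.11 in injured proximal tubule, 16.0% of all genes called). It was higher there in 3 of 4 libraries, and in 5 of the 11 alternative settings, among them leaving out untreated library 2, it had no call because it was not fitted.

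Collagen IV split by chain pair. Col4a1 and Col4a2 were at 602 ± 69.3 and 523 CPM in fibroblasts and at 456 and 415 in parietal epithelium, the lining of Bowman's capsule. Col4a1 was also at 429 in endothelium and at 402 in injured proximal tubule. The fibroblast and parietal levels did not differ beyond their spread (edgeR adjusted p = 0.189 for Col4a1 and 0.267 for Col4a2, 17.7% of all genes called). Without doublet removal a top class was called for Col4a1. The genes overlap at their starts, and counting may not have kept strands apart, but their bodies are otherwise apart. Podocytes were low in this pair, with Col4a1 at 34.7 CPM.

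Col4a3 and Col4a4 were highest in podocytes, at 3540 ± 693 and 2280 CPM, and next in the thin limb, at 2740 ± 1130 and 1740. The order of these classes was not separated (edgeR adjusted p = 0.267 and 0.165, 13.0% of all genes called). Both genes were called higher in podocytes without untreated library 2, at Leiden resolution 2 and with collagens kept in the clustering, and Col4a4 also with at most 5% mitochondrial UMIs. Proximal tubule followed with 1500 CPM of Col4a3, thick ascending limb with 1010 and principal cells with 897. The lowest class was macrophages at 171, and lymphocytes were at 407, which shows the level reached in nuclei of cells outside the nephron. Because of its size, proximal tubule held 56.5% of Col4a3 UMIs and 44.8% of those of Col4a4.

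Col4a5 was at 1020 ± 384 CPM in the thin limb and 635 ± 107 in podocytes (edgeR adjusted p = 0.0232, 16.0% of genes called), but was higher in the thin limb in only 3 of 4 libraries. Thin limb values were 585, 1520, 958 and 1000 in the 4 libraries. The call was lost in 8 of the 11 alternative settings, among them other size factors and leaving out untreated library 2 or either losartan library. Col4a6, whose chain joins the α5 chain outside the glomerulus, was at 548 ± 115 in urothelium, 396 in thin limb and 255 in parietal epithelium. Its top 2 classes were not separated (edgeR adjusted p = 0.289, 12.9% of all genes called). A top class of Col4a6 was called at Leiden resolution 2, with collagens kept in the clustering and with at most 5% mitochondrial UMIs. Within the thin limb the chains were uneven. Col4a3, Col4a5 and Col4a6 were at 4120, 1690 and 677 CPM in cluster 30 and at 2560, 777 and 252 in cluster 6. Cluster 30 held 6, 255, 53 and 113 nuclei in the 4 libraries. It was named from 3 detected markers, the fewest allowed. At Leiden resolution 2 and with collagens kept in the clustering, a cluster with the same leading genes stayed unnamed and was outside the thin limb class.

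For each of the 6 collagen IV genes, the collagen with the most similar class pattern was the other gene of its pair. Across the 15 classes the log2 levels correlated at 0.985 for Col4a1 and Col4a2, 0.937 for Col4a3 and Col4a4, and 0.809 for Col4a5 and Col4a6. Between pairs the values were lower, 0.652 for Col4a3 and Col4a5 and -0.396 for Col4a1 and Col4a3. Outside collagen IV, the collagen I chains correlated at 0.784 and Col1a1 and Col3a1 at 0.950.

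The remaining members had no separated top class in the fit reported. In alternative settings a top class was called for some of them. At Leiden resolution 2 these were Col5a3, Col8a1 and Col16a1. With at most 5% mitochondrial UMIs they were Col5a3 and Col16a1, with collagens kept in the clustering Col16a1, and without losartan library 2 Col25a1. Col18a1, the multiplexin from which endostatin is cut, was at 433 ± 97.6 CPM in fibroblasts, 419 ± 108 in parietal epithelium, 307 in injured proximal tubule and 274 in intercalated cells. Col5a2, the α2 chain of collagen V, was at 171 ± 123 in thick ascending limb, 147 in distal convoluted tubule and 124 in fibroblasts. Within the thick ascending limb it was at 309 CPM in cluster 1 and 33.5 in cluster 8. Its class pattern followed that of Col5a1 only in part (r = 0.481). Col8a1, of the hexagonal networks under endothelia, was at 208 ± 125 in fibroblasts and 173 ± 78.9 in mural nuclei. Col16a1 was at 33.1 in fibroblasts and 19.6 in mural nuclei (edgeR adjusted p = 0.0537), and Col25a1 at 51.7 ± 42.9 in mural nuclei and 26.2 in intercalated cells (18.3% of all genes called). Col7a1, of anchoring fibrils, was at 22.1 in urothelium and 9.56 in fibroblasts (16.7% called). Col5a3 was at 16.5 CPM or less in every class, Col20a1 at 13.4 or less (its top class, macrophages, against podocytes called 21.6% of all genes) and Col6a6 at 5.25 or less. The other 13 members had 6 to 180 UMIs over the 4 libraries, and the cartilage collagen genes Col2a1, Col9a1 and Col9a2 had 6, 6 and 7.

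Losartan was compared with untreated first on counts summed over all kept nuclei of a library. In such whole-kidney sums, fewer cells of a type and less RNA per cell cannot be told apart. Of the 44 members 41 passed the filter on low counts. With edgeR none was called, as was the case for all 18410 genes (0.0%), and 14 were lower and 5 higher at an unadjusted p under 0.05. Of all genes, 12.8% were lower and 9.17% higher by that measure. Fitted changes were negative for 29 members and positive for 12, with a median of -0.47 on the log2 scale against -0.01 for all genes. DESeq2, which called 8.70% of all genes, called 7 members: Col1a1, Col12a1, Col15a1 and Col18a1 lower, and Col6a6, Col19a1 and Col27a1 higher. For a single gene an exact permutation test of 2 against 2 libraries cannot go below a two-sided p of 0.333.

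Among fibrillar chains, Col1a1 was at 12.1 and 25.2 CPM in the untreated libraries and at 5.47 and 7.74 with losartan. The groups did not overlap, and the log2 change was -1.51 ± 0.39 (SE, edgeR adjusted p = 0.143). Col3a1 was at 19.7 and 39.7 against 12.0 and 18.6, and Col1a2 at 42.7 and 62.5 against 25.0 and 38.9. For these as well both losartan libraries were below both untreated ones, and untreated library 2 was the highest of the 4. Col5a1 was at 17.0 and 17.0 against 8.57 and 13.7. Of 41 members 22 had both losartan libraries below both untreated libraries, against 28.3% of all genes, and 6 had both above, against 29.1%.

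The multiplexins were lower in both losartan libraries. Col18a1 was at 115 and 149 CPM untreated and 59.2 and 86.6 with losartan (log2 change -0.86 ± 0.23, edgeR adjusted p = 0.145). Col15a1 was at 30.6 and 37.4 against 11.4 and 21.4 (-1.06). Col12a1 was at 13.3 and 23.4 against 5.84 and 9.03 (-1.31). In collagen VI, Col6a1 was at 12.6 and 12.9 against 6.33 and 9.67, and Col6a2 at 8.34 and 10.5 against 4.10 and 6.51. In none of these did the groups overlap. The share of fibroblast nuclei was also lowest in losartan library 1, and its part in these whole-kidney values was not tested.

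Collagen IV values differed in sign by chain pair. Col4a1 was at 195 and 185 CPM untreated and 106 and 149 with losartan, and Col4a2 at 186 and 170 against 110 and 154. Col4a3 was at 843 and 981 untreated and 1210 and 1190 with losartan, and Col4a4 at 583 and 618 against 795 and 715. None passed the edgeR test (adjusted p = 0.175 for Col4a1, 0.249 for Col4a2, 0.194 for Col4a3 and 0.217 for Col4a4), although no groups overlapped. Proximal tubule, which held 49.1% and 37.9% of Col4a3 UMIs untreated and 71.1% and 62.3% with losartan, had a larger share of nuclei in both losartan libraries, and endothelium a smaller one. The part of these shares in the result was not tested. Col4a5, at 196 and 279 against 208 and 208, and Col4a6, at 23.0 and 59.5 against 26.0 and 34.2, overlapped between groups.

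The highest fitted increase was that of Col19a1. It was at 7.2 and 5.42 CPM untreated and 48.2 and 23.4 with losartan, a log2 change of 2.5 ± 0.39 (edgeR adjusted p = 0.110). Col6a6 was at 1.38 and 2.10 against 4.81 and 3.77 (1.28). Col27a1 was at 278 and 254 against 346 and 381 (0.44 ± 0.12, edgeR adjusted p = 0.146). In these 3 both losartan libraries were above both untreated ones. Pooled over libraries, all 3 have most of their UMIs in proximal tubule, whose share of nuclei was higher with losartan. Within untreated library 2 this held for Col27a1 (78.9%) but not for Col19a1, as given above, or for Col6a6, with 34.9% in proximal tubule and 44.3% in fibroblasts. The part of the share of nuclei in these values was not tested.

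**Figure D2:**
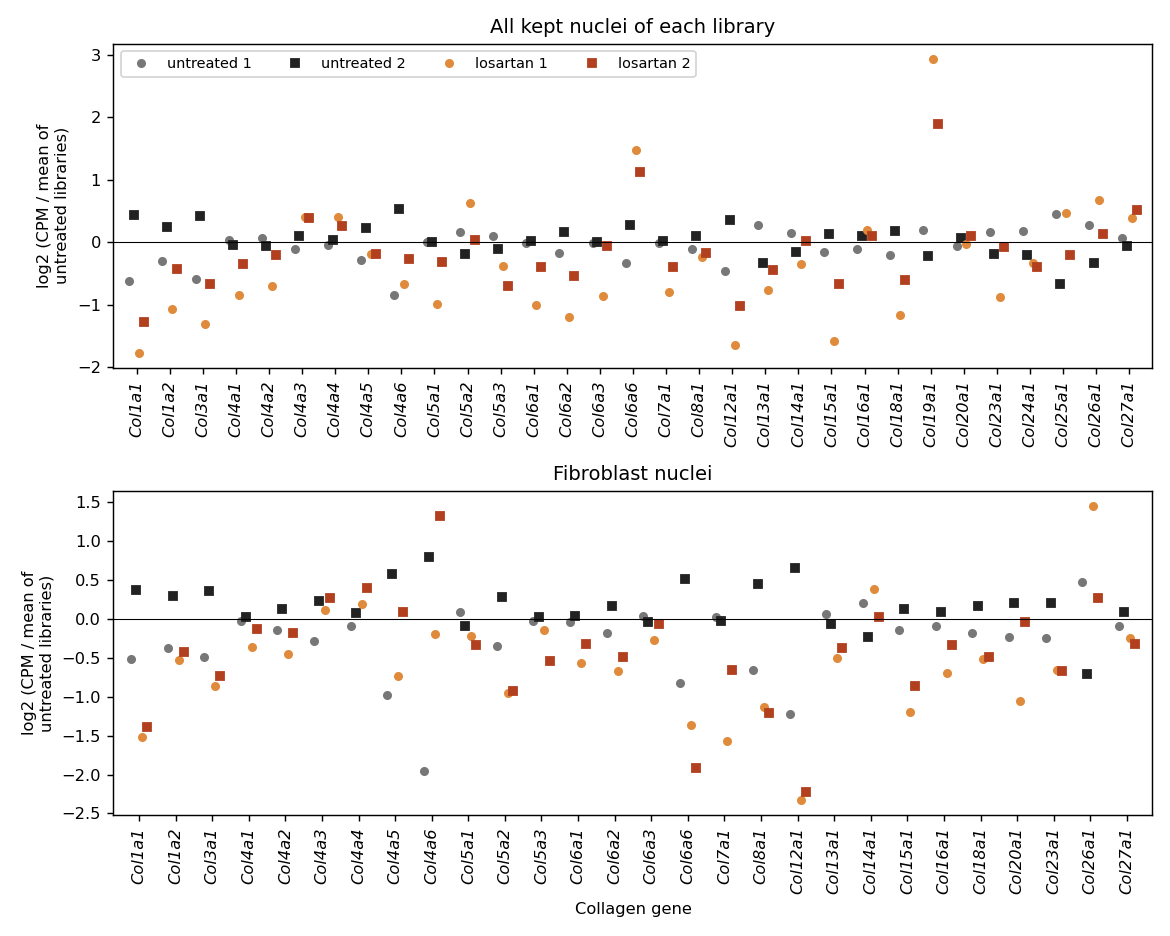
Level of each collagen in the 4 libraries as log2 of CPM over the mean of the untreated libraries, in the whole kidney (31 genes) and in fibroblasts (28 genes), with 1 point per library. In fibroblasts most losartan points lie below 0, and in the whole kidney Col19a1 and Col6a6 lie far above it.

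The other whole-kidney members included some without overlap between the groups. Col13a1 was at 6.51 and 4.29 CPM against 3.18 and 3.97, Col7a1 at 3.86 and 3.93 against 2.25 and 2.97, and Col5a3 at 4.79 and 4.13 against 3.41 and 2.74. Col24a1 was at 3.97 and 3.02 against 2.79 and 2.64, and Col8a1 at 45.8 and 52.7 against 41.9 and 43.8. In these the losartan libraries were the lower ones. Col16a1 was at 9.45 and 10.9 against 11.6 and 10.9, and Col26a1 at 14.4 and 9.41 against 18.9 and 13.1. Col20a1, at 7.30 and 7.96 against 7.49 and 8.19, differed by 0.03 on the log2 scale. Col14a1 was at 56.8 and 46.1 against 40.2 and 52.3, Col6a3 at 29.5 and 29.8 against 16.4 and 28.4, and Col5a2 at 41.9 and 32.9 against 57.6 and 38.5. Col23a1 was at 23.5 and 18.3 against 11.4 and 19.8, and Col25a1 at 6.24 and 2.86 against 6.31 and 3.95.

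Within classes, counts were summed per library and class and each class was fitted on its own, so that the share of nuclei per class does not enter directly. RNA from other classes and the balance of clusters inside a class can still enter these sums. CPM in these paragraphs are scaled within the class. Of all collagen and class pairs over the 15 classes, 1 was called, Col18a1 in the thick ascending limb.

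In fibroblasts 31 members were tested and none was called with edgeR, which called 0.0228% of all genes. At an unadjusted p under 0.05, 12 members were lower and 0 higher, against 4.85% and 3.61% of all genes. Both losartan libraries lay below both untreated ones for 22 members (19.5% of all genes) and above for 1 (18.9%). The median log2 change of the members was -0.43, that of all genes 0.01. DESeq2, which called 0.571% of all genes, called 3 members lower, Col1a1, Col8a1 and Col15a1.

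Col1a1 in fibroblasts was at 119 and 221 CPM untreated and at 59.2 and 65.1 with losartan, a log2 change of -1.44 ± 0.28 (edgeR adjusted p = 0.206). Col15a1 was at 264 and 321 against 128 and 161 (-1.0 ± 0.16, edgeR adjusted p = 0.145). Col12a1 was at 34.6 and 127 against 16.1 and 17.3 (-2.28 ± 0.56, edgeR adjusted p = 0.295). Both losartan values were below both untreated ones each time, and untreated library 2 was the highest. Col8a1 showed the same order at 171 and 369 against 123 and 117, and Col3a1 at 192 and 345 against 148 and 162. Col5a2 was at 119 and 185 against 78.8 and 80.3, and Col1a2 at 344 and 549 against 309 and 334.

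Other fibroblast members differed less. Col18a1 was at 417 and 531 CPM untreated and 332 and 339 with losartan (-0.49 ± 0.14, edgeR adjusted p = 0.379). Col6a1 was at 110 and 117 against 76.5 and 91.2, and Col6a2 at 74.8 and 95.1 against 53.5 and 60.4. These groups did not overlap. Col6a3, at 297 and 280 against 239 and 276, and Col5a1, at 176 and 155 against 142 and 131, were also ordered but with log2 changes of only -0.15 and -0.27. Col14a1, at 538 and 398 against 612 and 477 (0.22), overlapped. Without untreated library 1, 10 fibroblast collagens were called lower (4.57% of all genes called), and Col1a1 had a log2 change of -1.80 and an edgeR adjusted p of 6.72e-06. That fit assumes that the lone untreated library varies like the losartan group. Without untreated library 2 no collagen was called lower and Col4a6 was called higher (0.458% of all genes).

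Fibroblasts formed 2 clusters with different collagen levels. Cluster 16, with 592, 736, 399 and 753 nuclei in the 4 libraries, was led by Fbln5, Lama2 and Abca8a, and cluster 17, with 156, 229, 74 and 151 nuclei, by Tnn, Smoc2 and Cntn1. Col1a1 was at 123 and 257 CPM untreated and 64.8 and 73.1 with losartan in cluster 16, and at 95.7 and 90.5 against 27.8 and 9.25 in cluster 17. Col15a1 was at 235 and 315 against 108 and 162 in cluster 16 and at 378 and 355 against 251 and 150 in cluster 17. For both genes the losartan libraries were the lower ones in each cluster. At Leiden resolution 2 the genes that lead cluster 16 led separate clusters, one with 281, 452, 57 and 93 nuclei and another with 313, 262, 337 and 644. The balance of these clusters differed between the groups, and its part in the fibroblast values was not tested. Col14a1 was at 622 and 470 against 693 and 543 in cluster 16 and at 183 and 138 against 147 and 24.1 in cluster 17. Proximal tubule markers summed to 982 and 534 CPM in untreated fibroblast nuclei and to 1710 and 1180 with losartan, with 8 of 9 markers above in both losartan libraries. Fibroblast markers summed to 2880, 2860, 2900 and 2970 CPM. The part of the proximal tubule RNA in the collagen values was not tested.

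In mural and mesangial nuclei 21 members were tested, and none was called with edgeR, which called 0.709% of all genes. At an unadjusted p under 0.05, 9 were lower and 3 higher (7.08% and 8.91% of all genes), and DESeq2 called none (0.776% of all genes). Col12a1, with its highest level here, was at 435 and 475 CPM untreated and 138 and 290 with losartan (-1.07 ± 0.31, edgeR adjusted p = 0.126). Col18a1 was at 221 and 248 against 126 and 149 (-0.76), and Col5a1 at 27.0 and 39.4 against 12.1 and 8.40 (-1.71). In these the losartan libraries were lower without overlap. Col27a1, which is highest in proximal tubule, was at 135 and 110 against 217 and 233 (0.90 ± 0.21, edgeR adjusted p = 0.0820). Proximal tubule markers in mural nuclei summed to 3060 and 1490 untreated and 5140 and 5810 with losartan, with 9 of 9 above in both losartan libraries, and their part in the Col27a1 values was not tested. Col19a1, at 192 and 197 against 232 and 170, overlapped, and Col25a1 was at 118 and 37.9 against 26.6 and 29.4. The markers of the class itself were lower too. They summed to 4500 and 5170 CPM untreated and 3340 and 3060 with losartan, 7 of 10 being below in both. Their part in the result was not tested. Without untreated library 1, 6 mural collagens were called lower and 1 higher (6.57% of all genes called), and without losartan library 2, 3 were called lower (3.33%). Col12a1 was among those called lower in both. Without untreated library 2 Col25a1 was called lower and Col12a1 was not. Without losartan library 1 neither of them was called. Col12a1 was also called at Leiden resolution 2 (-1.38, edgeR adjusted p = 0.0390, 1.95% of all genes) and with collagens kept in the clustering (-1.37, edgeR adjusted p = 0.0375, 1.89%).

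Podocytes supply the α3, α4 and α5 chains of the glomerular basement membrane. With losartan Col4a3 was at 2190 and 2640 CPM, against 3370 and 3380 untreated, a log2 change of -0.45 ± 0.12 (edgeR adjusted p = 0.161). Col4a4 was at 1550 and 1810 against 2090 and 2000, and Col4a5 at 417 and 471 against 558 and 632. The losartan libraries were the lower ones for each chain. Col1a2 was at 166 and 143 against 81.5 and 83.8 (-0.86, edgeR adjusted p = 0.176). No member of the 10 tested was called with edgeR, which called 0.364% of all genes, and 3 were lower and 0 higher at an unadjusted p under 0.05 (3.75% and 4.08% of all genes). DESeq2 called none (0.0758% of all genes). Col4a3 was called lower without untreated library 1 (2.84% of all genes called) and without losartan library 2 (0.680%), and Col1a2 without untreated library 2 (1.02%). Podocyte markers were level, at 85600, 85900, 88100 and 85900 CPM.

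In endothelium Col4a1 was at 489 and 476 CPM untreated and 268 and 403 with losartan, and Col4a2 at 414 and 395 against 223 and 342. The log2 changes were -0.51 for each, and no member of 23 was called with edgeR (0.0% of all genes), 2 being lower and 1 higher at an unadjusted p under 0.05 (2.11% and 2.79%) and none called by DESeq2 (0.0959%). Col25a1 was at 16.5 and 7.77 against 47.2 and 22.2 (1.5, edgeR adjusted p = 0.860). Col15a1, at 59.8 and 50.3 against 60.1 and 71.1, was not lower here. Proximal tubule markers in endothelial nuclei summed to 1340 and 693 untreated and 2020 and 1720 with losartan, with 8 of 9 above in both losartan libraries. Markers of injured proximal tubule, where Col4a1 is also high, summed to 250 and 266 against 73.7 and 104. The part of either in these values was not tested. In 2 immune classes most fitted changes were positive, and none was called with edgeR (0.0% of all genes in each) or by DESeq2 (0.130% in lymphocytes and 0.0731% in macrophages and dendritic cells). In lymphocytes 0 of 10 members were lower and 6 higher at an unadjusted p under 0.05 (5.34% and 4.11% of all genes), and 0 had both losartan libraries below and 7 above (25.7% and 17.2%), with a median of 1.04. Col4a3 was at 401 and 211 against 634 and 550 there. In macrophages and dendritic cells 0 of 18 were lower and 1 higher (4.69% and 4.02%), 1 had both libraries below and 3 above (25.0% and 16.7%), and the median was 0.44 with 16 fitted higher. Proximal tubule markers summed to 1520 and 712 against 3040 and 2310 in lymphocytes and to 1660 and 658 against 2370 and 1620 in macrophages, and their part was not tested. Without untreated library 1, 6 members were called higher in lymphocytes (18.3% of all genes called) and 7 in macrophages (13.8%).

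In parietal epithelium Col4a6 was at 300 and 369 against 194 and 193 (-0.80, edgeR adjusted p = 0.133). In injured proximal tubule, a class at 3.65% and 4.55% of untreated nuclei and 0.288% and 1.29% of losartan nuclei, Col4a3 was at 670 and 576 against 340 and 348 (-0.78, edgeR adjusted p = 0.450).

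Col18a1 fell in the thick ascending limb, the sodium-reabsorbing segment that builds the medullary gradient. It was at 81.2 and 89.3 CPM untreated and at 40.9 and 41.8 with losartan. The groups were far apart compared with the gap inside each, and the log2 change was -1.04 ± 0.13 (edgeR adjusted p = 0.0305), where 0.346% of all genes and 1 of 26 members were called. DESeq2, which called 0.947% of all genes, called it as well. The call was lost without losartan library 1 (edgeR adjusted p = 0.527), without losartan library 2 (0.304) and without a filter on low counts (0.0675). It held in cluster 1 alone (1810 nuclei, log2 change -1.23, edgeR adjusted p = 0.0068) and not in cluster 8 alone (2298 nuclei, -0.80, adjusted p = 0.216). Losartan was below untreated without overlap in each.

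Col18a1 overlaps Slc19a1, a folate transporter gene on the opposite strand of chromosome 10. Slc19a1 was at 10.7 and 5.96 CPM untreated and 7.36 and 10.2 with losartan in the thick ascending limb (log2 change 0.09). Markers of injured proximal tubule, where Col18a1 is high, summed to 137 and 170 CPM untreated and 20.1 and 44.5 with losartan in these nuclei, and 5 of 6 were below in both losartan libraries. Those of parietal epithelium summed to 164, 112, 105 and 99.8 and those of fibroblasts to 78.6, 70.6, 93.0 and 78.1. Endothelial markers summed to 200 and 169 against 607 and 367, with 9 of 9 above in both losartan libraries, and proximal tubule markers to 984 and 418 against 1490 and 1220, with 8 of 9 above. The part of these markers in the result was not tested. Markers of the class itself were at 19000, 19100, 20100 and 22300.

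Across the kidney Col18a1 was tested in 15 classes and its fitted change was negative in 11. Both losartan libraries were below both untreated ones in 8 classes and above in 1. In the distal convoluted tubule it was at 70.6 and 66.4 CPM against 46.6 and 42.5 (-0.63, edgeR adjusted p = 0.200), in principal cells at 168 and 197 against 101 and 126, and in proximal tubule at 46.0 and 50.8 against 27.5 and 36.7. Markers of injured proximal tubule were lower as well in these 3 classes, with 5 of 6 below in both losartan libraries in each. They summed to 261 and 302 against 21.2 and 44.0 in distal convoluted tubule, 126 and 448 against 40.6 and 56.7 in principal cells, and 87.6 and 106 against 29.1 and 34.1 in proximal tubule. Their part in the Col18a1 values was not tested. Slc19a1 in proximal tubule was at 52.0 and 59.9 CPM against 39.4 and 45.2 (-0.43, edgeR adjusted p = 0.28), lower without overlap. It was at 11.9 and 7.72 against 13.6 and 8.95 in distal convoluted tubule, and at 10.8 and 8.46 against 12.1 and 8.76 in principal cells. In these 2 classes its groups overlapped. The part of Slc19a1 in the Col18a1 values was not tested. For Col18a1 the class with both losartan libraries above was injured proximal tubule, at 260 and 339 against 350 and 345. Col5a2 values had the opposite sign in these segments. It was at 120 and 47.9 untreated and 331 and 172 with losartan in the thick ascending limb (1.58 ± 0.42, edgeR adjusted p = 0.203), and at 111 and 79.4 against 226 and 143 in the distal convoluted tubule (0.95, edgeR adjusted p = 0.245). Col5a2 in the thick ascending limb was called higher without untreated library 1 (7.08% of all genes called), without untreated library 2 (2.94%) and in cluster 1 alone (edgeR adjusted p = 0.0331).

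**Figure D3:**
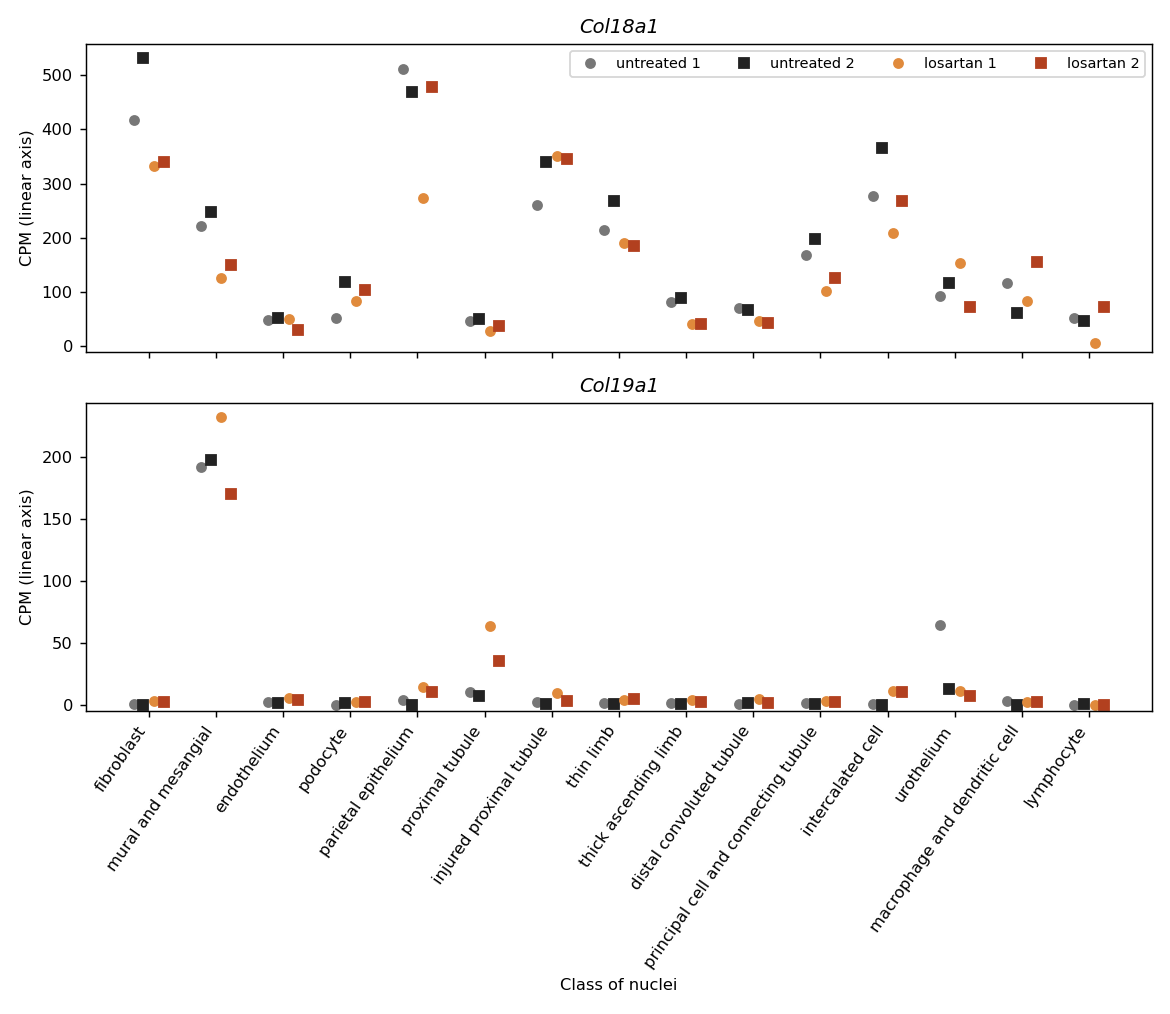
CPM of Col18a1 and Col19a1 by class, 1 point per library, untreated and losartan in separate colours. In the thick ascending limb the losartan points for Col18a1 (40.9 and 41.8) lie below the untreated ones (81.2 and 89.3), and Col19a1 stands highest in mural nuclei, where the groups overlap.

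In proximal tubule 33 members were tested and none was called with edgeR (0.0% of all genes), 4 being lower and 4 higher at an unadjusted p under 0.05 (7.55% and 5.41% of all genes). DESeq2, which called 2.18% of all genes, called Col6a6, Col19a1 and Col26a1 higher. Col19a1 was at 10.0 and 6.77 CPM untreated and 63.8 and 35.2 with losartan, a log2 change of 2.53 ± 0.34 (edgeR adjusted p = 0.172). Col26a1 was at 1.34 and 0.279 against 8.03 and 5.55 (3.04, edgeR adjusted p = 0.178), and Col6a6 at 1.98 and 2.58 against 6.35 and 6.23 (1.43, edgeR adjusted p = 0.178). All 3 had both losartan libraries above both untreated ones. Both losartan libraries were above for 6 members (24.7% of all genes) and below for 10 (21.4%). Without losartan library 2, Col19a1 was called here (0.761% of all genes called).

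The abundant collagens of proximal tubule differed less. Col4a3 was at 1110 and 1310 CPM against 1410 and 1540, and Col4a4 at 504 and 602 against 787 and 758 (0.46, edgeR adjusted p = 0.253). Col4a1 was at 142 and 111 against 71.2 and 92.5, and Col18a1 was lower as given above. Col27a1, which was higher with losartan in whole-kidney sums, was at 551 and 705 against 468 and 605 within the class and overlapped.

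Cluster 32 of the proximal tubule came almost wholly from losartan library 1, which gave 1337 of its 1376 nuclei. Without it the log2 change of Col19a1 was 2.08 (edgeR adjusted p = 0.10), that of Col6a6 1.28 and that of Col26a1 3.28. In each of the 5 proximal tubule clusters with at least 20 nuclei in every library, Col19a1 was higher in both losartan libraries. It was at 33.5 and 14.6 CPM against 79.7 and 70.3 in cluster 11, at 6.84 and 7.30 against 38.2 and 33.0 in cluster 4, and at 4.34 and 3.37 against 43.2 and 27.3 in cluster 3. It was at 4.84 and 3.92 against 14.3 and 11.2 in cluster 9, and at 0.337 and 0.358 against 14.9 and 7.53 in cluster 10. The untreated values of clusters 3 and 10 rest on 2, 1, 1 and 1 UMIs. Col6a6 and Col4a4 were likewise above, and Col18a1 below, in 5 of 5 clusters. Col6a6 had 52 and 106 UMIs in all nuclei of the untreated libraries, of which proximal tubule held 53.8% and 34.9%. Its untreated cluster values therefore rest on few UMIs. The clusters share the same 4 libraries, so 5 of 5 is not repeated evidence. The share of all genes with such an order in 5 of 5 clusters was not counted. Col26a1 came mainly from cluster 3 (21.7, 0, 39.8 and 22.7 CPM), which had 47, 20, 347 and 281 nuclei. Its nuclei held a median of 10013 UMIs, 2.42 times that of their libraries, and the class that its markers fit next best was intercalated cell. The part of that depth in the Col26a1 values was not tested.

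**Figure D4:**
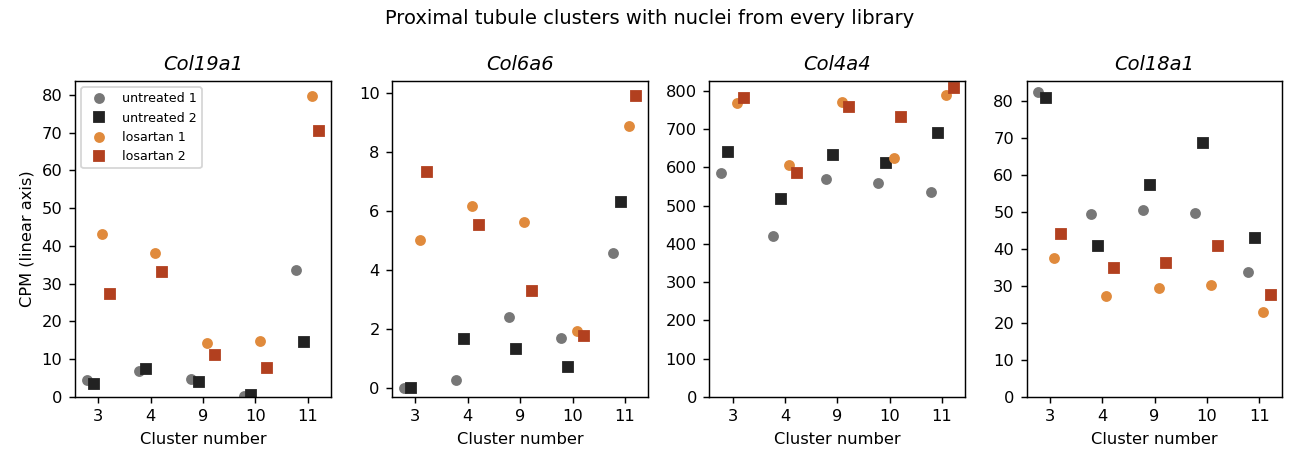
CPM of Col19a1, Col6a6, Col4a4 and Col18a1 in the 5 proximal tubule clusters with at least 20 nuclei in every library, 1 point per library. In each cluster both losartan points are above both untreated points for the first 3 genes and below them for Col18a1.

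Markers of mural nuclei, the class with the highest Col19a1, summed to 61.6 and 54.1 CPM in untreated proximal tubule nuclei and to 59.2 and 53.1 with losartan and overlapped between the groups. Those of principal cells, the class with the highest Col26a1, summed to 276 and 256 against 326 and 400. Their part in the Col26a1 values was not tested. In intercalated cells Col19a1 was at 0.955 and 0 CPM untreated and 10.9 and 10.1 with losartan (4.25 ± 0.89, edgeR adjusted p = 0.0885). Proximal tubule markers there summed to 1110 and 569 against 3160 and 2380, with 9 of 9 above in both losartan libraries, and their part in that value was not tested.

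For 9 members the difference in change between a pair of classes was itself fitted. Each had a class with a lower and a class with a higher fitted change. In both classes the unadjusted edgeR p was under 0.05 and the groups did not overlap. Where several classes qualified, the class with the smallest p was taken in each direction. None passed with edgeR, the adjusted p ranging from 0.0702 to 0.260, and all 9 had an unadjusted p of at most 0.00228. The pairs were chosen from the same values by their p, so the small unadjusted p of the differences follows in part from that choice. Of all genes, 0.796% were called for mural nuclei against injured proximal tubule, 0.393% for lymphocytes against podocytes, 0.0473% for endothelium against mural nuclei, 0.00741% for principal cells against fibroblasts and 0.0% for the rest. Col25a1 was lower in mural nuclei and higher in endothelium, a difference of 2.82 on the log2 scale (edgeR adjusted p = 0.0702). Col6a6 was lower in fibroblasts and higher in proximal tubule (3.13, edgeR adjusted p = 0.159). Col8a1 differed by 3.36 between fibroblasts and principal cells, and Col5a2 by 1.80 between fibroblasts and distal convoluted tubule. In principal cells Col8a1, Col8a2 and Col10a1 together gave 0.0497, 0.0392, 0.0676 and 0.228 of every 10000 UMIs in the 4 libraries. These nuclei held 0.347%, 0.414%, 0.512% and 2.1% of all Col8a1 UMIs. Losartan library 2 was the highest by far in both, so the principal cell change of Col8a1 rests mainly on that library.

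**Figure D5:**
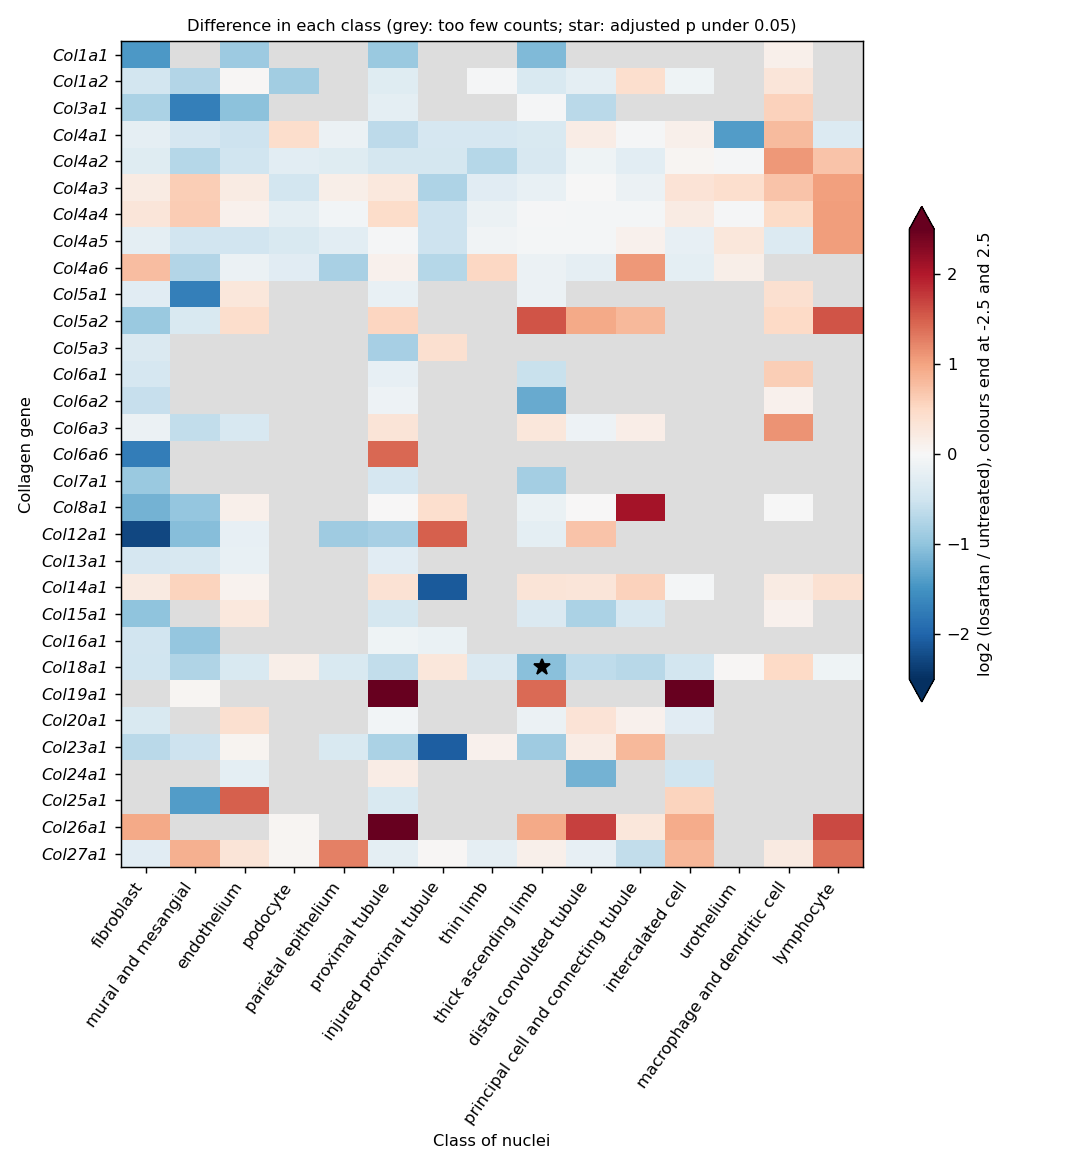
Fitted log2 change with losartan for the 31 collagens with at least 200 UMIs (rows) in each of the 15 classes (columns). Cells are grey where counts were too low, and a star marks an adjusted p under 0.05. The only star is Col18a1 in the thick ascending limb, the fibroblast and mural columns hold mostly negative values, and the lymphocyte and macrophage columns mostly positive ones.

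Summed over all 44 members, collagens gave 29.4 and 34.2 of every 10000 UMIs in untreated whole kidney and 29.7 and 32.1 with losartan, so the totals overlapped. Without Col4a3, Col4a4 and Col4a5 the sums were 12.7 and 13.9 against 9.28 and 11.6. All 44 members together gave 45.5 and 58.2 against 39.1 and 41.5 in fibroblasts, of which fibrillar collagens made 10.6 and 16.0 against 8.43 and 8.62. All 44 gave 66.1 and 63.1 against 47.9 and 53.4 in podocytes, where the members without Col4a3, Col4a4 and Col4a5 gave 5.51 and 5.15 against 5.26 and 4.07 and overlapped. In each of the other sums but the first, both losartan libraries were below both untreated ones.

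Genes that make, process or bind collagen were counted from lists of the pathway. In the whole kidney no gene of these lists was called with edgeR. At an unadjusted p under 0.05 the 14 tested genes of prolyl and lysyl modification had 2 lower and 0 higher (12.8% and 9.17% of all genes), with 13 fitted lower and a median of -0.20 on the log2 scale. The 15 of propeptide removal and cross-linking had 6 lower and 0 higher (median -0.61), and the 14 of collagen breakdown and its inhibitors 4 lower and 0 higher (-0.70). The 8 collagen receptors had 2 lower and 0 higher (-0.25), the 16 basement membrane partners 7 lower and 1 higher (-0.35), and the 14 genes of TGF-beta signalling 2 lower and 0 higher (-0.16). The 10 genes of folding and export had 0 lower and 2 higher (-0.02), and the median of all genes was -0.01. In fibroblasts none was called with edgeR, each list having 1 to 3 genes lower and 0 to 2 higher at an unadjusted p under 0.05 (4.85% and 3.61% of all genes), and medians ran from -0.01 for basement membrane partners to -0.52 for breakdown.

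Within classes 3 pathway genes were called, all lower. For scale, edgeR called 0.364% of all genes in podocytes and 0.346% in the thick ascending limb, in either direction. In podocytes 9 genes of prolyl and lysyl modification and 10 of TGF-beta signalling were tested. In the thick ascending limb 16 basement membrane partners were tested. In podocytes Plod2, which hydroxylates collagen telopeptide lysines for cross-linking, was at 1260 and 1450 CPM untreated and 580 and 700 with losartan (-1.05 ± 0.14, edgeR adjusted p = 0.00415). Ctgf, a matricellular factor induced by TGF-beta, was at 120 and 161 against 39.6 and 58.9 in podocytes (-1.48 ± 0.29, edgeR adjusted p = 0.0409). How the Plod2 and Ctgf calls depend on single libraries is not given here. Lama5, the laminin α5 chain of basement membranes, was at 117 and 116 against 62.2 and 59.4 in the thick ascending limb (-0.94 ± 0.12, edgeR adjusted p = 0.0284), the class in which Col18a1 fell. Like that of Col18a1, the Lama5 call was lost without losartan library 1 and without losartan library 2, where no gene was called in this class.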

How the data were processed

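The deposited files held raw UMI counts per gene and barcode, written by Cell Ranger 5.0.0 per the file headers. The submitters' processing notes name mm10 and Bowtie 0.12.2 without a role. Whether intronic reads and strand were counted is not given in the sources used here, so values of genes that overlap on opposite strands are uncertain. From these counts, nuclei under 500 UMIs or 300 genes, or above 10% mitochondrial UMIs, were dropped. Doublets were scored with Scrublet in scanpy 1.11.5 (Python 3.11.15), by its automatic threshold in untreated library 1. In the other 3 libraries, where that threshold marked under 0.5% of nuclei, the top scores were removed at 0.8% per 1000 nuclei. In all 717, 821, 777 and 856 nuclei were removed as doublets. Counts were scaled to 10000 UMIs and reduced to 3000 variable genes (collagens left out) and 30 principal components. Leiden clustering (igraph 0.11.9, resolution 1, 15 neighbours) gave 34 clusters. Of these 29 were named from 25 marker sets, and 5 with 2247 nuclei stayed unnamed. A name needed 3 markers each detected in at least 10% of nuclei, and a mean standardised log2(CPM + 5) at least 0.25 above the next lineage. A cluster whose 10 leading genes held more markers of another lineage stayed unnamed, as did proliferating clusters and those over 5 times the median mitochondrial share.

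Counts were summed per library, over all nuclei and in each of the 15 classes that no library had under 20 nuclei of, and tested with edgeR 4.0.16 in R 4.3.3 (TMM, filterByExpr, quasi-likelihood test, Benjamini-Hochberg over all genes of a fit). DESeq2 1.42.0 was an alternative, and the edgeR steps were tested on simulated data. Members with at least 200 UMIs were named with values, pathway genes only where called. Of the 15 gene lists 8 divide the collagens. Members, lists and markers were chosen with earlier results of these data known.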

Additional observations from a re-analysis of the deposited data

How the results depend on the processing

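In the whole kidney edgeR called 0 of 41 collagens (0.0% of all genes), DESeq2 7 (8.70%) and a fit with a replicate block 9 (12.3%). Without losartan library 2 the log2 change of Col19a1 was 2.93. Within classes 1 pair was called in the fit reported. The count was 25 without a filter on low counts, 8 with DESeq2, 25 with a replicate block, 2 at Leiden resolution 2, 2 with collagens kept in the clustering, 8 without doublet removal, and 0 to 44 leaving out each library. The share of members tested in the 15 classes went from 0.377% in the fit reported to 4.27%, 3.02%, 9.43%, 0.813%, 0.772% and 2.69% in these settings, and that of all genes from 0.175% to 1.19%, 0.581%, 2.07%, 0.272%, 0.235% and 0.947%. The count of 44 came without untreated library 1 (15.5% of members and 4.69% of all genes called). The labels number the libraries alike in both groups, but only 2 pairs share a number. The differences between replicates correlated positively between groups, at 0.352 over 18410 genes. Whether libraries of the same number were paired cannot be decided from this value, and the labels do not say. Top classes were called for 17 to 22 collagens over the alternatives, against 18.

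Of 835 alternative values for 72 single changes, 728 kept direction and side of the threshold, 88 passed it, 4 lost it and 15 changed sign. Fibroblast Col14a1 (0.22) became -0.55 at Leiden resolution 2, -1.05 with at most 5% mitochondrial UMIs and -1.05 in cluster 17 alone. In the first 2 the large fibroblast cluster stayed unnamed. Mural Col19a1 (0.05) became -0.26, -0.11 and -0.20 at Leiden resolution 2, with collagens kept and with at most 5% mitochondrial UMIs. The cause was not tested. The fits on single clusters and without cluster 32 were chosen after seeing the data. Leaving out each library gave -0.43 to 0.0701 for Col4a5, -0.98 to 0.37 for Col4a6, -0.37 to 0.017 for Col14a1, -0.0357 to 0.0944 for Col20a1, -0.30 to 0.84 for Col25a1 in the whole kidney and -0.15 to 0.28 for mural Col19a1. With 2 libraries a group, small changes in low-count members were not detectable.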
